A study of Mus musculus with 19 samples.

Results

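Small heat shock proteins and their co-chaperone Bag3 were followed in mouse tibialis anterior, a fast muscle of the lower leg, with and without the intermediate filament protein desmin. The members were 8 listed genes, Cryab, Hspb1, Hspb2, Hspb3, Hspb6, Hspb7, Hspb8 and Bag3, kept where a probe set of the array was annotated to that gene symbol alone. Of these, 7 had such a probe set, among 12393 genes with one, and all 7 were among the 7436 genes bright enough to be tested; Hspb6 had none and was not analysed here. Where a gene had several probe sets, the one with the highest mean over the 19 arrays stood for it.

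All mice were of strain 129/SVE and every muscle had performed 50 eccentric contractions, a lengthening of the muscle while it is active, 12 h before RNA was taken. The 4 groups were wild type at 7 to 9 weeks (WT_Adult, 5 arrays), wild type at 12 to 14 months (WT_Aged, 5 arrays), and desmin knockout, Des(-/-), at the same ages (KO_Adult, 5 arrays, and KO_Aged, 4 arrays). The labels give the knockout as a genotype of the whole animal, with no Cre or cell type named, and no muscle without contractions was analysed here. Whether each array is a different animal is not stated in the labels; the p-values cover array-to-array spread, which may be partly technical. In whole muscle, fewer cells of a type and less RNA per cell cannot be told apart.

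Small heat shock proteins share an alpha-crystallin domain and work without ATP: they hold unfolding proteins until these are refolded by Hsp70 or degraded. In striated muscle several of them move to the Z-disc and to desmin filaments after damaging contractions. Bag3 links Hsp70 to Hspb8 and to the Z-disc protein synaptopodin 2, and together they remove damaged filamin C in a route named chaperone-assisted selective autophagy. Mutations in the human counterparts of Cryab, Bag3, Hspb8 and Des cause inherited muscle disease with protein aggregates.

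Des, the targeted gene, differed by log2 -5.00 (SE 0.35) in adult and -5.38 (SE 0.37) in aged knockout muscle, as the genotype labels have it. The fast fibre markers, which define this muscle, were bright on every array (9 genes summing to 190331 to 352676). Poly-A control RNA gave signal on 8 arrays (dap probe set 1184 to 3103), namely all 5 of WT_Aged and replicates 3, 4 and 5 of KO_Adult, and almost none on the other 11 (1 to 17.4). The comparisons of aged knockout with aged wild type, and of aged with adult wild type, therefore lie wholly across this split. KO_Aged replicates 2 and 3 had Gapdh 3' to 5' ratios of 8.61 and 5.01 against 0.766 to 0.968 elsewhere, where a high ratio means that less of the RNA reaches the 5' end. Results were computed again with a term for the control signal and without these 2 arrays. The term can be estimated only from KO_Adult, which holds arrays of both kinds; with it, the adult genotype difference sets the 2 KO_Adult arrays without control signal against WT_Adult.

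In both ages the members that differed between genotypes were lower without desmin. Differences are on the scale log2(intensity + 4.76) after quantile normalization, from 1 limma model of all 19 arrays, and called means an adjusted p under 0.05 by Benjamini and Hochberg's method over all 7436 genes. In adult muscle 2 of 7 members were called, Hspb2 and Bag3, both lower, where 16.7% of all tested genes were called and 9.37% were called lower. The median difference of the 7 was -0.11, beside 0.04 over all genes. In aged muscle 4 of 7 were called, Hspb2, Hspb8, Bag3 and Cryab, all lower, where 29.5% of all genes were called and 12.5% were called lower. The arrays of the aged groups did not overlap for 4 of 7 members (Cryab, Hspb2, Hspb3 and Hspb8), nor for 31.2% of all genes. All 7 aged differences were negative in this model, with a median of -0.52 beside 0.07 over all genes. With the control-signal term the aged median was -0.36 beside -0.0063 over all genes. Hspb1 (0.011) and Hspb8 (0.051) were then positive, and Hspb7 was positive without the 2 arrays of high Gapdh ratio (0.54). With the control-signal term 2 members were called in adult muscle (Bag3 and Hspb8; 6.67% of all genes) and 1 in aged muscle (Hspb2; 5.49%). Without the 2 arrays of high Gapdh ratio, Hspb2 alone was called in aged muscle, where 14.2% of all genes were.

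**Figure D1:**
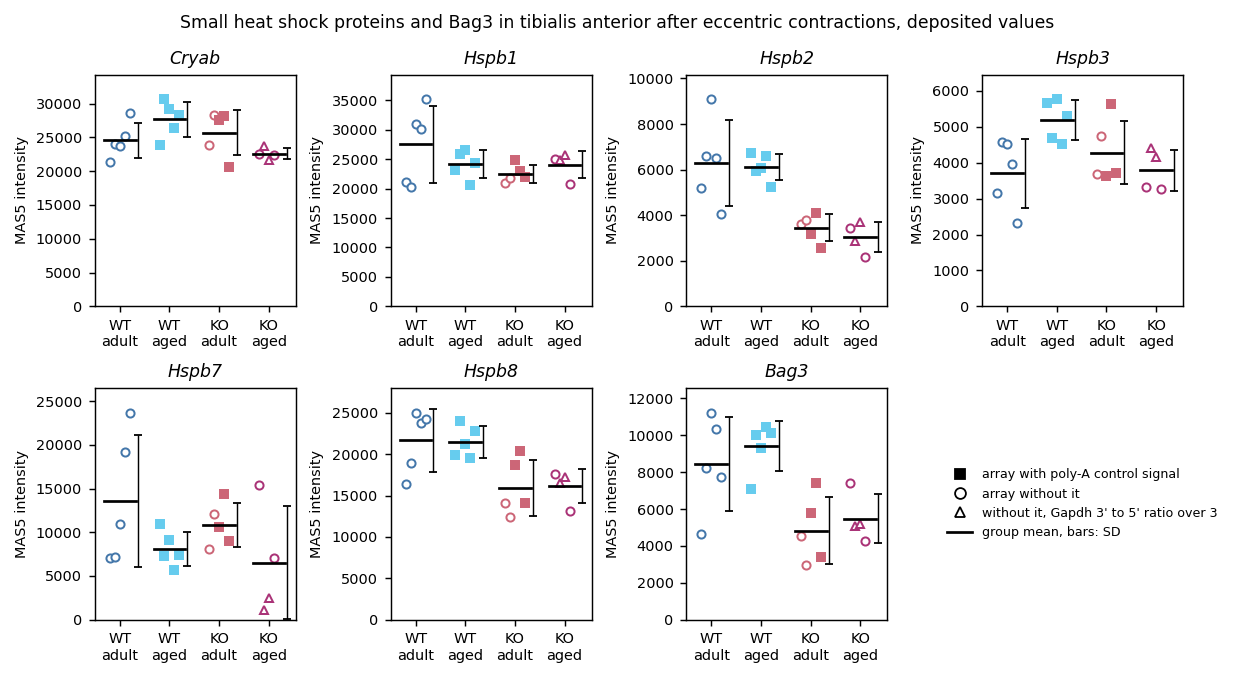
Deposited MAS5 intensity of the main probe set of each of the 7 measured genes (vertical axis, linear, from 0) on each array of the 4 groups (horizontal axis); filled squares carry poly-A control signal, open symbols do not, triangles mark KO_Aged arrays with a Gapdh ratio over 3, and lines and bars are group means and SD. Hspb2 is lower in both knockout groups, Bag3 and Hspb8 lie lower there with overlap in the adults, and Hspb7 spreads from 1151 to 15448 in KO_Aged.

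Among the main probe sets, and without the control-signal term, Hspb2 gave the largest called difference of the family in both ages. In adult muscle its lead over Bag3 was small beside their errors (log2 -0.88, SE 0.19, and -0.87, SE 0.26). With the term Bag3 (-1.20) and Hspb8 (-0.70) were called there and Hspb2 (-0.77) was not. In aged muscle other probe sets of Hspb8 (1417014_at, -1.83) and Hspb7 (1421289_at, -2.55) gave larger called differences. Hspb2 encodes a small heat shock protein of heart and skeletal muscle that binds the myotonic dystrophy protein kinase. Its probe set, 1429888_a_at, read 5202, 6579, 9080, 6492 and 4037 in WT_Adult and 6710, 5949, 6085, 6595 and 5246 in WT_Aged. It read 3610, 3807, 3164, 4092 and 2563 in KO_Adult and 3435, 2869, 3681 and 2173 in KO_Aged. Every KO_Aged array lay below every WT_Aged array, and in the adults the only wild-type array inside the knockout range was the lowest, at 4037.

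The group means of Hspb2 were 6278 ± 1882 (SD, n = 5) in WT_Adult, 6117 ± 585 (SD, n = 5) in WT_Aged, 3447 ± 599 in KO_Adult (SD, n = 5) and 3040 ± 670 in KO_Aged (SD, n = 4). In that order of means only the step from wild type to knockout exceeded the spread: neither age pair differed detectably (log2 -0.02 in wild type, 95% interval -0.42 to 0.38; -0.14 in knockout, -0.57 to 0.28). Hspb2 fell by 0.88 on the log2 scale in adult knockout muscle (SE 0.19, 1.84-fold, adjusted p 0.00450) and fell by 1.01 in aged knockout muscle (SE 0.20, 2.01-fold, adjusted p 0.00137). The groups did not overlap after normalization in either age, as was so for 10.1% of all genes in adult muscle, and an exact permutation test (2-sided) gave p 0.00794 in each.

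The adult call of Hspb2 was lost under median centring (log2 -0.58, adjusted p 0.0874), with the control-signal term (-0.77, adjusted p 0.0746) and on the arrays without control signal alone (-0.77, adjusted p 0.198). The aged call stood with the term (-1.19, adjusted p 0.0497) and when KO_Aged replicates 2 and 3 were left out (-1.10, adjusted p 0.00928). That left only replicates 1 and 4 of the group, of Gapdh ratio 0.788 and 0.968. Replicate 4 gave the lowest Hspb2 reading of the group, 2173.

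Inside the arrays that carry control signal, the 3 KO_Adult arrays could be set against the 5 WT_Aged arrays, though age differs too. There Hspb2 read 3164, 4092 and 2563 against 5246 to 6710, with no overlap, and fell by 0.94 (SE 0.22, 1.91-fold, adjusted p 0.0131). After normalization 3 of 7 members did not overlap (Hspb1, Hspb2 and Hspb8), nor did 26.5% of all genes. Hspb2 was the only 1 of 7 members called in this comparison, where 9.33% of all genes were called. Bag3 differed by -0.87 (SE 0.28, adjusted p 0.0634) and Hspb8 by -0.37 (SE 0.15, adjusted p 0.137). Cryab (-0.23), Hspb1 (-0.16), Hspb3 (-0.29) and Hspb7 (0.51) did not pass either (adjusted p 0.370 to 0.671). The Hspb2 call rested on single arrays here: without KO_Adult replicate 3 the adjusted p was 0.0503 (-0.93) and without replicate 5 it was 0.107 (-0.78). Bag3 passed there without KO_Adult replicate 4 (-1.11, adjusted p 0.0366).

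**Figure D2:**
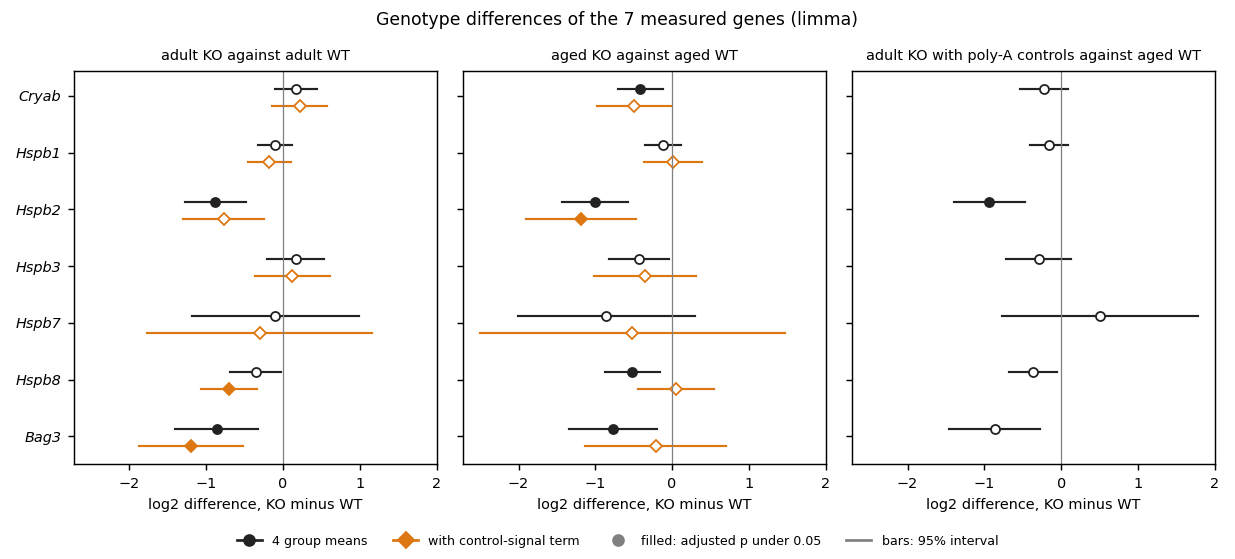
Log2 difference of knockout minus wild type (horizontal axis) for the 7 genes (rows) with 95% intervals, in adult muscle, in aged muscle and among arrays with poly-A control signal; black circles are the model of 4 group means, orange diamonds add the control-signal term, and filled symbols have an adjusted p under 0.05. Hspb2 lies between -0.77 and -1.19 in all 5 estimates, while the aged estimates of Hspb8 and Bag3 move to 0.05 and -0.22 with the term.

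Cryab, alpha B-crystallin, is the small heat shock protein best known for guarding desmin filaments, and its gene is the neighbour of Hspb2. In the RefSeq gene table (GRCm38.p6) the span of Hspb2 on chromosome 9 lies inside that of Cryab. The positions of the single probes were not used here, so whether a probe of either set lies in sequence that both transcripts hold was not tested. The main Cryab probe set, 1434369_a_at, read 21370, 24042, 23733, 25159 and 28527 in WT_Adult and 23902, 30612, 29177, 26404 and 28285 in WT_Aged. It read 23858, 28332, 27514, 28202 and 20625 in KO_Adult and 22549, 23719, 21651 and 22389 in KO_Aged. The KO_Aged arrays were close together and all lay below WT_Aged, while the adult groups overlapped.

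Mean Cryab intensity was highest in WT_Aged (27676 ± 2603, SD, n = 5), then KO_Adult (25706 ± 3377, SD, n = 5), WT_Adult (24566 ± 2609, SD, n = 5) and KO_Aged (22577 ± 856, SD, n = 4). KO_Adult and WT_Adult did not differ beyond their spread, nor, in the comparison within control signal, did KO_Adult and WT_Aged; WT_Adult and KO_Aged were not compared. Cryab fell by 0.41 (SE 0.14, 1.33-fold, adjusted p 0.0320) in aged knockout against aged wild type. In adult muscle the difference was 0.17 (SE 0.13, 95% interval -0.10 to 0.44, adjusted p 0.388). A second bright Cryab probe set, 1416455_a_at, gave no such fall: it read 18094 to 22079 in WT_Aged and 19911 to 22512 in KO_Aged, a difference of -0.03 (adjusted p 0.899). The aged call of the main probe set was also lost without normalization (-0.29, adjusted p 0.101) and with the control-signal term (-0.50, adjusted p 0.189), and without any 1 of WT_Aged replicates 2 to 5 and KO_Aged replicates 3 and 4 (adjusted p 0.0553 to 0.0860). The third probe set, 1435837_at, is dim, with group medians of 22 to 82.

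The amount of Hspb2 relative to Cryab on the same array does not depend on a linear scaling between arrays, so this ratio was compared in deposited values, after the data had been seen. It is a ratio of 2 probe sets of unlike efficiency, and only its differences between groups have a meaning. The log2 ratio differed by -0.89 between adult knockout and adult wild type (2-sided exact permutation p 0.0238) and by -0.74 between aged knockout and aged wild type (exact p 0.00794, no overlap). Among arrays with control signal it differed by -0.79 (exact p 0.0179, no overlap). Adjusted over the 10 ratio comparisons made on this scale, each of these values was 0.0794 and none passed 0.05. In deposited values the ratio varied most in WT_Adult, where its SD was 0.52 against 0.16 in KO_Adult. On the normalized scale it differed by -1.05 between the adult genotypes (exact p 0.00794, no overlap). The aged genotypes differed by -0.59 there (exact p 0.0159, with overlap), and the arrays with control signal by -0.71 (exact p 0.0179, no overlap). Each adjusted value was 0.0595 over the 10 comparisons of that scale. The second bright Cryab probe set was not used for a ratio.

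**Figure D3:**
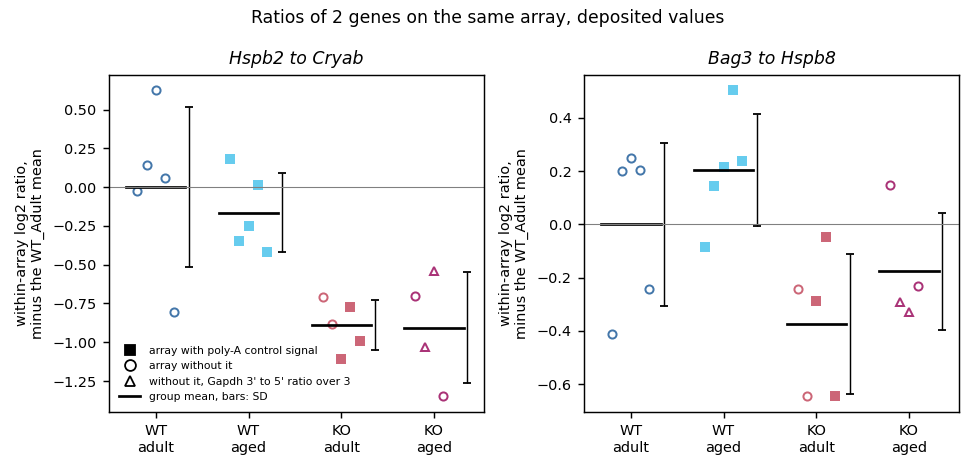
Within-array log2 ratio of deposited intensities, Hspb2 to Cryab (left) and Bag3 to Hspb8 (right), with the WT_Adult mean set to 0 (vertical axis), for each array of the 4 groups; lines are group means and bars SD, with symbols for control signal and Gapdh ratio as in the legend. For Hspb2 to Cryab the KO_Adult mean lies at -0.89, with KO_Aged beside it, and 1 WT_Adult array falls into the knockout range.

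Bag3 and Hspb8 act as a pair, and both are textbook targets of the heat shock factor HSF1, which binds inverted repeats of GAA in promoters. Promoter windows from RefSeq (GRCm38.p6), from 250 bases before to 50 bases after a gene's start, were at hand for 6 of the 8 listed genes. Cryab and Hspb2 had none. The matching 8 bases are shown in capitals below within 30 bases of their window, because 4 members hold the same run, GAAGTTTC, in windows that otherwise differ.
Hspb1, chr5:135887791-135887820, plus strand: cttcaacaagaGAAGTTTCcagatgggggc
Hspb6, chr7:30553170-30553199, plus strand: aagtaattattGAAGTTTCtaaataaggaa
Hspb8, chr5:116422844-116422873, minus strand: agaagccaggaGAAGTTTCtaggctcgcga
Bag3, chr7:128523603-128523632, plus strand: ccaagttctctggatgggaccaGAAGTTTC
The first capital lies at -117 from the start in Hspb1, at -120 in Hspb6, at 3 in Hspb8 and at 43 in Bag3.

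The search was for GAANNTTC and TTCNNGAA, repeats of 2 units that read the same on both strands. Of the 6 genes, 5 held such a match (these 4 and Hspb3). The 6 genes have 7 windows, of which 5 matched, beside 15.1% of all 32851 windows. The exact run GAAGTTTC, on either strand, was picked after the matches were seen and lies in 1.21% of windows. None of the 6 held the 3-unit form, in which NN and another inverted unit follow, found in 0.603% of windows. The Bag3 match ends at the last base of its window, so a unit after it could not be seen. A match is only a run of letters, and no binding was measured.

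Bag3 binds Hsp70 through its BAG domain and Hspb8 through short hydrophobic motifs. Its probe set, 1422452_at, read 4659, 8202, 11226, 10347 and 7757 in WT_Adult and 7082, 10014, 9298, 10454 and 10147 in WT_Aged. It read 4518, 2990, 5775, 7439 and 3408 in KO_Adult and 7386, 5092, 5179 and 4242 in KO_Aged. Knockout arrays were mostly lower, but 1 wild-type array in each age, at 4659 and 7082, lay inside the knockout range.

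Bag3 averaged 9399 ± 1363 (SD, n = 5) in WT_Aged, 8438 ± 2560 (SD, n = 5) in WT_Adult, 5475 ± 1342 (SD, n = 4) in KO_Aged and 4826 ± 1817 (SD, n = 5) in KO_Adult. Within a genotype the ages did not differ beyond the spread (log2 0.22 in wild type, 95% interval -0.32 to 0.76; 0.32 in knockout, -0.25 to 0.89). Bag3 fell by 0.87 in adult knockout muscle (SE 0.26, 1.82-fold, adjusted p 0.0274) and fell by 0.77 in aged knockout muscle (SE 0.27, 1.70-fold, adjusted p 0.0418). Both calls stood near the threshold. The adult call held with the control-signal term (-1.20, adjusted p 0.0360), but the same value on the arrays without control signal alone missed the threshold (adjusted p 0.105). It was also lost with only the groups compared in the model (adjusted p 0.0909), without the filter on dim genes (adjusted p 0.0543), under median centring (-0.57, adjusted p 0.141) and without WT_Adult replicate 3 or 4 or KO_Adult replicate 2 or 5 (adjusted p 0.0576 to 0.0792). The aged value became -0.22 (adjusted p 0.795) with the term, and its call was lost without any 1 of WT_Aged replicates 2 to 5 and KO_Aged replicates 2 to 4 (adjusted p 0.0636 to 0.110).

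Hspb8, the partner that brings unfolded clients to Bag3, was bright in all groups. Its main probe set, 1417013_at, read 16423, 18904, 25034, 23795 and 24310 in WT_Adult and 19908, 23996, 21200, 19522 and 22793 in WT_Aged. It read 14163, 12388, 18702, 20378 and 14130 in KO_Adult and 17672, 16496, 17254 and 13182 in KO_Aged. All KO_Aged arrays lay below WT_Aged, and in KO_Adult the brightest 2 arrays, both with control signal, overlapped WT_Adult.

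Mean Hspb8 was 21693 ± 3807 (SD, n = 5) in WT_Adult, 21484 ± 1900 (SD, n = 5) in WT_Aged, 16151 ± 2038 (SD, n = 4) in KO_Aged and 15952 ± 3405 (SD, n = 5) in KO_Adult. Between the wild-type ages the difference of 0.24 (95% interval -0.10 to 0.58) missed limma's threshold (adjusted p 0.241). The normalized values of these groups did not overlap (exact permutation p 0.00794 on that scale), but their deposited values did. Between the knockout ages the difference was 0.08 (-0.28 to 0.43). Hspb8 fell by 0.52 in aged knockout muscle (SE 0.17, 1.43-fold, adjusted p 0.0289; exact permutation p 0.00794), a call lost without WT_Aged replicate 2 or 5 or KO_Aged replicate 2, 3 or 4 (adjusted p 0.0528 to 0.0859). In adult muscle the difference was -0.36 (SE 0.16, adjusted p 0.132), and without KO_Adult replicate 4 it passed (-0.49, adjusted p 0.0366). With the control-signal term the pattern turned round: the adult difference became -0.70 (adjusted p 0.0250) and the aged one 0.05 (adjusted p 0.916). A second probe set, 1417014_at, differed by -1.83 in aged muscle (adjusted p 0.00761) and missed the threshold in adult muscle (adjusted p 0.129). In KO_Aged it read 12066, 1181, 1765 and 4276, and the 2 lowest of these are the arrays of high Gapdh ratio. The third, 1456434_x_at, read 42 to 1118 over all arrays and passed in no comparison.

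The Bag3 to Hspb8 ratio within arrays differed by -0.37 between the adult genotypes (exact permutation p 0.0635) and by -0.38 between the aged ones (exact p 0.0556). Its adjusted value over the 10 ratio comparisons of deposited values was 0.106 in both. Among arrays with control signal it differed by -0.53 (exact p 0.0357, adjusted 0.0893). On the normalized scale it differed by -0.51 between the adult genotypes (exact p 0.0397, adjusted 0.0992) and by -0.25 between the aged ones (exact p 0.135, adjusted 0.193). Within control signal the normalized value was -0.50 (exact p 0.0536, adjusted 0.107). None of these passed 0.05 after adjustment. All were negative, but they come from the same arrays on both scales and are not independent.

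Hspb1, the chaperone Hsp25 that binds actin and intermediate filaments, gave no called difference. Its main probe set, 1425964_x_at, read 20231 to 35136 (median 30172) in WT_Adult, 20649 to 26622 (median 24295) in WT_Aged, 20894 to 24866 (median 21900) in KO_Adult and 20707 to 25674 (median 24947) in KO_Aged. All 4 ranges overlapped. The genotype difference was -0.11 in adult muscle (95% interval -0.33 to 0.12, adjusted p 0.514) and -0.11 in aged muscle (-0.35 to 0.12, adjusted p 0.461). A fall of more than 0.35 lies outside these intervals, but not outside those with the control-signal term. With it they were -0.46 to 0.10 in adult and -0.37 to 0.39 in aged muscle. The set's _x_at ending means that some of its probes also match other sequences. The other probe set, 1422943_a_at, gave -0.17 (adjusted p 0.292) and 0.11 (adjusted p 0.514).

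Hspb3, which forms a complex with Hspb2 in muscle, read 3151, 4580, 4507, 3971 and 2324 in WT_Adult and 5653, 4697, 5764, 4512 and 5299 in WT_Aged. It read 3686, 4745, 3638, 5627 and 3715 in KO_Adult and 3321, 4400, 4156 and 3270 in KO_Aged (probe set 1449872_at). WT_Aged was highest on average, with every array above every KO_Aged array. The aged genotype difference of -0.43 (SE 0.19, exact permutation p 0.00794) nevertheless missed the threshold over all genes (adjusted p 0.0904), and the adult one was 0.16 (SE 0.18, adjusted p 0.543). Hspb3 thus did not share the adult fall of Hspb2 beyond its spread; that the 2 genes differ from each other was not tested.

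Hspb7, the cardiovascular small heat shock protein that binds filamin C, had the widest spread of the members in 3 of the 4 groups, with an SD on the log2 scale of 0.71 in WT_Adult and 1.73 in KO_Aged. Its main probe set, 1421290_at, read 7021, 7122, 10930, 19146 and 23692 in WT_Adult and 10934, 7237, 9083, 5708 and 7459 in WT_Aged. It read 8059, 12047, 10624, 14429 and 8952 in KO_Adult and 15448, 1151, 2461 and 7110 in KO_Aged. The lowest readings, 1151 and 2461, were those of the KO_Aged arrays with Gapdh ratios of 8.61 and 5.01, and replicate 1 of that group was the brightest of its 4. The aged genotype difference was -0.86 (SE 0.55, adjusted p 0.253) and the adult one -0.10 (SE 0.52, adjusted p 0.912).

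With both arrays of high Gapdh ratio left out, the aged difference of Hspb7 turned to 0.54 (adjusted p 0.436), and without KO_Aged replicate 1 it was -1.51 (adjusted p 0.0234). Probe set 1421289_at read 10876, 216, 318 and 1180 in KO_Aged and differed by -2.55 in aged muscle (adjusted p 0.0176), while 1434927_at read 5342, 979, 2351 and 3452 and differed by -0.85 (adjusted p 0.0945). No direction is given for Hspb7 in aged muscle.

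**Figure D4:**
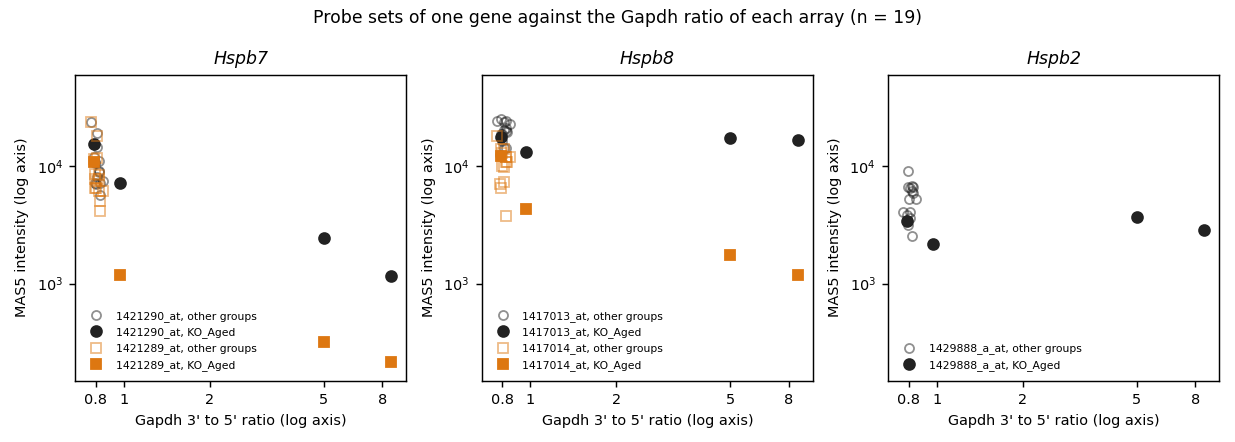
Deposited intensity (vertical, log axis) of the brighter 2 probe sets of Hspb7 and of Hspb8 and of the Hspb2 probe set against the Gapdh 3' to 5' ratio (horizontal, log axis) of each of the 19 arrays; filled symbols are KO_Aged. At the ratios of 5.01 and 8.61, Hspb7 reads 2461 and 1151 and 1417014_at of Hspb8 reads 1765 and 1181, while 1417013_at of Hspb8 (17254 and 16496) and Hspb2 (3681 and 2869) stay within the range of the other knockout arrays.

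Age within a genotype was compared with the same arrays, so these values share their groups with the genotype differences. Between aged and adult wild-type muscle 2 of 7 members were called, Cryab (0.36, SE 0.13, 1.29-fold, adjusted p 0.0351) and Hspb3 (0.49, SE 0.18, 1.40-fold, adjusted p 0.0359), both higher with age, where 38.9% of all genes were called and 18.1% were called higher. These 2 groups differ wholly in control signal. Under that term 0 members passed limma's test, before adjustment too (7 of 7436 genes were called, or 0.0941%), and the values were 0.45 for Cryab (adjusted p 0.378) and 0.41 for Hspb3 (adjusted p 0.542). The second bright Cryab probe set gave 0.05 (adjusted p 0.767). The 0.24 of Hspb8, whose groups did not overlap after normalization, stands beside 29.4% of all genes whose groups did not. Single arrays decided both calls: that of Cryab was lost without WT_Adult replicate 3, 4 or 5 or WT_Aged replicate 2, 3, 4 or 5 (adjusted p 0.0595 to 0.0917), and that of Hspb3 without WT_Adult replicate 1 or 5 or WT_Aged replicate 1, 3 or 5 (adjusted p 0.0613 to 0.0931).

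Between aged and adult knockout muscle 0 of 7 members were called by limma, where 7.44% of all genes were. The differences ran from -1.23 (Hspb7, adjusted p 0.183, unadjusted p 0.0384) to 0.32 (Bag3, adjusted p 0.531), and 1 of 7 had an unadjusted p under 0.05. Another Hspb7 probe set, 1421289_at, passed there (-3.04, adjusted p 0.0226); it read 216 and 318 on the arrays of high Gapdh ratio. The single call gained by leaving out an array was that of Hspb7 without KO_Aged replicate 1 (-1.88, adjusted p 0.0212).

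Whether desmin loss acted differently in the 2 ages was tested by the interaction, the aged genotype difference minus the adult one. Cryab passed (-0.58, SE 0.19, adjusted p 0.0325), which was 1 of 7 members where 25.1% of all genes passed. Its adult difference was 0.17 and its aged one -0.41. Without any 1 of WT_Adult replicates 3 and 4, WT_Aged replicates 2 to 4, KO_Adult replicates 3 and 4 and KO_Aged replicates 3 and 4 the adjusted p was 0.0508 to 0.0661. The interaction of Cryab was 0.13 (adjusted p 0.634) in the probe set 1416455_a_at and -0.72 (adjusted p 0.313) with the control-signal term. Hspb3 gave -0.59 (SE 0.26, adjusted p 0.0964) and Hspb7 -0.75 (SE 0.76, adjusted p 0.484), and neither passed. Hspb8 (-0.16, adjusted p 0.640) and Hspb1 (-0.0098, adjusted p 0.970) did not pass either. For Hspb2 the interaction was -0.12 (95% interval -0.71 to 0.46, adjusted p 0.775) and for Bag3 0.10 (-0.69 to 0.89, adjusted p 0.872), so a different fall with age was not detectable for either, and the intervals are wide.

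The partners of Bag3 and Hspb8 in selective autophagy did not move one way. Of 15 tested genes, 2 were higher and 4 lower in adult knockout muscle, where 16.7% of all genes were called (median -0.20 beside 0.04 over all genes). Synpo2, the synaptopodin that holds the complex at the Z-disc, fell by 1.64 (adjusted p 0.00885), its relative Synpo fell by 0.82 (adjusted p 0.0213), Sqstm1, an autophagy receptor, fell by 0.72 (adjusted p 0.0184), and Yap1, a transcriptional co-activator, rose by 0.74 (adjusted p 0.0177). In aged knockout muscle 4 were higher and 2 lower, where 29.5% of all genes were called (median 0.35 beside 0.07). There Synpo rose by 1.81 (adjusted p 5.50e-05), Sqstm1 rose by 1.37 (adjusted p 0.000142) and the syntaxin Stx7 rose by 0.70 (adjusted p 0.00123), while Tsc1, an inhibitor of mTORC1, fell by 0.68 (adjusted p 0.00383). The value of Tsc1 turned to 0.23 (adjusted p 0.533) with the mean of all its probe sets, and when KO_Aged replicates 2 and 3 were left out it missed the threshold (-0.61, adjusted p 0.0577), as did the list's other lower gene. The control-signal term left 6.67% of all genes called in adult and 5.49% in aged muscle. Of the list, 1 gene was then called in adult muscle and 2 in aged muscle. They are named for having passed there: Stx7 in adult muscle (0.54, adjusted p 0.0470), and Yap1 (1.05, adjusted p 0.0198) and the related co-activator Wwtr1 (0.93, adjusted p 0.0490) in aged muscle. The adult calls of Synpo, Sqstm1 and Yap1 were each lost without 1 or more of WT_Adult replicate 3 and KO_Adult replicates 3, 4 and 5 (adjusted p 0.0506 to 0.0644). Those of Synpo (-0.24, adjusted p 0.324) and Yap1 (0.24, adjusted p 0.298) were also lost with the mean of all their probe sets. The term took Sqstm1 to -0.13 (adjusted p 0.620) in adult and 0.40 (adjusted p 0.240) in aged muscle.

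Among other BAG-domain and small heat shock genes 5 were tested. Bag6, a chaperone of membrane proteins, fell by 1.03 in adult knockout muscle (adjusted p 0.00132) and rose by 1.06 in aged knockout muscle (adjusted p 0.000701). Hspb11, also known as a part of the ciliary transport machinery, rose by 0.90 in adult muscle (adjusted p 0.00170). With the mean of all its probe sets Hspb11 missed the threshold (0.61, adjusted p 0.182). Under the control-signal term 0 of the 5 passed limma's test in either age; before adjustment 2 had p under 0.05 in adult muscle and 0 in aged muscle.

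Most tested genes of the list of Hsf1, Hsf2 and the heat shock genes that HSF1 classically drives were lower in aged knockout muscle. Of 9 tested, 7 were called lower, where 12.5% of all genes were (median -1.45 beside 0.07 over all genes). Dnajb1, an Hsp40, fell by 3.64 (SE 0.72, adjusted p 0.00127), Hspa1a, the inducible Hsp70, fell by 2.41 (SE 0.62, adjusted p 0.00767), Hsp90aa1, an inducible Hsp90, fell by 2.25 (SE 0.64, adjusted p 0.0135) and Dnaja1, another Hsp40, fell by 2.19 (SE 0.53, adjusted p 0.00468). When KO_Aged replicates 2 and 3 were left out, 3 were called lower, where 14.2% of all genes were called in either direction. Under the control-signal term 0 passed limma's test (2 before adjustment), where 5.49% of all genes were called. The values were then -3.28 for Dnajb1 (adjusted p 0.119) and -0.07 for Hsp90aa1 (adjusted p 0.973). In adult muscle 1 of 9 was called, where 16.7% of all genes were called and 9.37% were called lower. This was Hspe1, the mitochondrial Hsp10, which fell by 0.64 (adjusted p 0.0218). The list's adult median was -0.89, and 5 of 9 had an unadjusted p under 0.05. With the term the adult median was -1.30 and 2 were called lower, where 6.67% of all genes were called in either direction. These were Dnaja1 (-1.98, adjusted p 0.0470) and Hsph1, an Hsp110 (-1.30, adjusted p 0.0422), while Hspe1 missed the threshold (-0.61, adjusted p 0.138). The call of Hspe1 was also lost without WT_Adult replicate 3 or 4 or KO_Adult replicate 5 (adjusted p 0.0577 to 0.0624). With the mean of all its probe sets Hspe1 missed the threshold too (-0.49, adjusted p 0.0521). The aged call of Hsp90aa1 was lost without KO_Aged replicate 2 (adjusted p 0.0508).

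Desmin and its Z-disc neighbours are the clients these chaperones are known to serve. Of 18 tested, 1 was higher and 4 were lower in adult knockout muscle, where 16.7% of all genes were called (median -0.06). Apart from Des, Pdlim7, an adaptor of the actin cytoskeleton, fell by 0.86 (adjusted p 0.000795), Capn3, the muscle protease calpain 3, fell by 0.70 (adjusted p 0.00474) and Myoz2, a calcineurin-binding protein of slow fibres, rose by 0.87 (adjusted p 0.0179). In aged muscle 3 were higher and 4 lower, where 29.5% of all genes were called (median 0.03). Myoz2 rose by 2.75 (adjusted p 1.69e-06), Actn2, the Z-disc actin crosslinker, rose by 1.07 (adjusted p 8.59e-05) and Ldb3, which binds it, rose by 0.82 (adjusted p 0.000670). With the control-signal term 1 was higher and 2 lower in adult muscle, where 6.67% of all genes were called. In aged muscle, where 5.49% of all genes were called, 2 were higher and 2 lower with the term. The aged rises of Myoz2 (2.21, adjusted p 0.00646) and Actn2 (0.96, adjusted p 0.0380) stood with it, while Ldb3 (0.43, adjusted p 0.244) and, in adult muscle, Capn3 (-0.49, adjusted p 0.124) missed the threshold. With the mean of all its probe sets the aged value of Ldb3 turned to -0.068 (adjusted p 0.860). The adult call of Myoz2 was lost without WT_Adult replicate 3 (adjusted p 0.0584). Myoz2 also stands in the list of slow fibre markers, and Flnc, filamin C, stands in both this list and that of the autophagy partners.

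Markers of other fibres and cells differed between the same groups. Over all genes 16.7% were called between genotypes in adult and 29.5% in aged muscle, and with the control-signal term 6.67% and 5.49%. The summed intensity of 9 slow fibre markers ranged from 24192 to 41156 in KO_Aged against 5494 to 10868 in WT_Aged, with 7 of 9 called higher; in the adults it was 13644 to 22246 in KO_Adult against 8920 to 17323 in WT_Adult, with 2 higher and 1 lower. The 8 endothelial markers summed to 2491 to 3015 in KO_Adult against 5109 to 6478 in WT_Adult, with 6 called lower, and to 2453 to 3264 in KO_Aged against 4082 to 5082 in WT_Aged, with 4 called lower and 1 higher. The 8 smooth muscle and pericyte markers summed to 7038 to 10780 in KO_Adult and 5987 to 8949 in KO_Aged, against 8432 to 15247 and 8460 to 13109 in wild type of the same ages; of 7 tested, 3 were called lower in adult muscle, and 2 lower and 1 higher in aged muscle. The 5 neutrophil markers summed to 432 to 4383 in KO_Adult against 463 to 1663 in WT_Adult, and to 6885 to 12662 in KO_Aged against 2405 to 13044 in WT_Aged, ranges that overlap in both ages. Between genotypes limma called 0 of the 4 tested and 0 of 6 macrophage markers (1 of each at an unadjusted p under 0.05 in adult muscle, 0 in aged muscle). Of 6 fibroblast markers, 1 was lower in adult and 2 were higher in aged knockout muscle. With the control-signal term 1 slow fibre marker was higher in adult and 3 were higher in aged muscle. Endothelial markers called lower were then 5 in adult and 3 in aged muscle, and 1 smooth muscle and pericyte marker was lower in each age. Of the fibroblast, neutrophil and macrophage markers 0 passed limma's test with the term in either age after adjustment. No marker was at the floor of the scale on all arrays of a group. The part of these cells in the differences of Hspb2, Bag3, Hspb8 and Cryab was not tested.

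The genes whose values ran most like each member over the 19 arrays were listed as a description, since all arrays share their normalization and groups. Hspb2 ran with Aopep, an aminopeptidase (Pearson's r = 0.93), Cavin1, a coat protein of caveolae (0.93), and Mmp10, a matrix protease (0.90). Bag3 ran with Arc (0.95), the transcription factor Sox4 (0.93) and the Hsp40 gene Dnaja1 (0.92), and with group means removed these r were 0.95, 0.92 and 0.90. Hspb8 ran with the actin regulator Enah (0.95), Cpne1 (0.92) and Ifrd1 (0.92), and Cryab with Glul, glutamine synthetase (0.96), Snrpa1 (0.90) and Gar1 (0.88). For Hspb2 the r fell to 0.69 to 0.77 with group means removed. Hspb7 ran with the calcium sensor Stim1 (0.87), Nfe2l1 (0.86) and the kinase Camk2b (0.85). The likest genes of Hspb1 (Asap1, 0.80) and Hspb3 (Stard3nl, 0.79) were less close.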

How the data were processed

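RNA was made into biotinylated cRNA and hybridized to Affymetrix arrays, per the labels' protocols, 1 array per sample. The deposited values are linear MAS5 intensity values made by the authors, per the submitters' processing notes; its release was not given in the sources used here. Precision is set by how many arrays a group has. The table holds 22690 probe sets (64 controls); 20380 carry 1 symbol in the platform annotation. Values became log2(value + 4.76), where 4.76 is their percentile 10, and were quantile normalized because array medians spanned 0.63. The brightest probe set represented its gene, and the 60% brightest genes were tested with limma 3.58.1 (R 4.3.3) in a model of 4 group means, with Benjamini-Hochberg adjustment. The script was tested on simulated data. Replicates were numbered in accession order. All measured members were tested in every comparison, but some values that were not called are left out of the text. From each pathway list up to 4 genes with the smallest p are named if they passed. The members and lists were chosen with earlier results of these data known. Promoter windows and figures used Python 3.11.15, pandas 2.3.3 and matplotlib 3.10.9. The alternatives were median centring, no normalization, other pseudocounts, no filter, other probe sets, a control-signal term, subsets of arrays and leaving out each array.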

Additional observations from a re-analysis of the deposited data

Results flagged for a closer look

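Of 28 groups of arrays (7 genes in 4 groups), 1 held a lone sample far from the rest: Hspb1 in KO_Aged, where replicate 4 lay at 14.36 on the normalized log2 scale (deposited intensity 20707) and its nearest neighbour at 14.62, a gap of 0.885 of the group's range. Chance alone sets apart about 1 group in 20, and the second Hspb1 probe set read 22627 on that array against 24429 to 26453 on the other 3.

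The genotype difference of Cryab differed between the ages, with an interaction of -0.58 (limma, adjusted p 0.0325). The second bright Cryab probe set gave 0.13, and with the control-signal term the adjusted p was 0.313; what sets the 2 probe sets apart was not tested.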

How the results depend on the processing

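The smaller and the larger pseudocount tried left all 66 differences of members and pathway genes with their sign and on their side of the threshold. Depth does not apply to arrays; 4 or 5 arrays a group, the control-signal split and the 2 arrays of high Gapdh ratio limit the rest, and unless stated the cause of a shift was not tested. No paired analysis was possible because the labels give no replicate numbers; the number codes that end the titles are explained nowhere, and the only first 4 digits that 2 groups have in common are held by 2 WT_Aged arrays and 1 KO_Aged array.

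The number of members called fell from 2 to 0 in adult knockout against adult wild type under median centring and on the arrays without control signal alone (fewer arrays), and to 1 without the filter on dim genes (more genes tested) or with only the groups compared in the model; the mean of all probe sets gave 3, with Hspb8 gained. In aged knockout against aged wild type it fell from 4 to 2 under median centring or without normalization, and to 1 without the filter, with the control-signal term, without the 2 arrays of high Gapdh ratio, and with both of the last; the mean of all probe sets gave 3, with Cryab lost (adjusted p 0.0687), and only the groups compared gave 5, with Hspb3 gained (adjusted p 0.0313). In aged against adult wild type it fell from 2 to 1 under median centring or without normalization, and to 0 without the filter, with the term, and with the term and fewer arrays. For the interaction it went from 1 to 2 under median centring (Cryab and Hspb3), and to 0 without normalization, without the filter, with the mean of all probe sets, with the term, without the 2 arrays, and with both of these. In adult knockout against aged wild type within control signal it went from 1 to 0 under median centring, and to 2 with the mean of all probe sets or with only the groups compared.

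Leaving out each array in turn gave 1 to 3 calls in adult and 1 to 5 in aged genotype comparisons, 0 to 2 in aged against adult wild type, 0 to 1 in aged against adult knockout, 0 to 1 for the interaction and 0 to 2 within control signal. The signs that turned were those of 7 differences near 0, none of them called with all arrays. The ranges were -0.083 to 0.29 for the Bag3 interaction, -0.054 to 0.060 for that of Hspb1 and -0.26 to 0.023 for that of Hspb2. In aged against adult knockout they were -0.25 to 0.0041 for Hspb2 and -0.054 to 0.21 for Hspb8. For Hspb2 in aged against adult wild type the range was -0.14 to 0.12, and for Hspb7 in adult knockout -0.28 to 0.10.

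The remaining changes of sign, by setting, were these. With the control-signal term, aged knockout against wild type gave 0.011 for Hspb1 and 0.051 for Hspb8, and the interaction gave 0.19 and 0.75 for the same genes. Aged against adult wild type then gave -0.024 for Hspb1, 0.17 for Hspb2, -0.33 for Hspb8 and -0.33 for Bag3. With the term and without the 2 arrays, those values were again -0.024, 0.17, -0.33 and -0.33, the aged genotype difference was 0.87 for Hspb7, 0.069 for Hspb8 and 0.38 for Hsp90aa1, the knockout age difference was 0.37 for Hspb7, and the interaction was 0.13 for Hspb1, 1.18 for Hspb7 and 0.77 for Hspb8. Without the 2 arrays alone, Hspb7 gave 0.54 between the aged genotypes, 0.17 between knockout ages and 0.64 for the interaction.

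The mean of all probe sets gave -0.13 for Cryab in adult and 0.23 for Tsc1 and -0.068 for Ldb3 in aged knockout, 0.28 for Cryab between knockout ages and 0.13 for the Hspb1 interaction. Median centring gave 0.071 for Hspb7 in adult knockout, 0.18 for Hspb2 between wild-type ages, -0.045 for Hspb1 and -0.11 for Hspb8 between knockout ages, -0.29 for the Bag3 interaction and 0.046 for Hspb1 within control signal. No normalization gave -0.16 for Hspb1 and 0.0090 for Hspb2 between wild-type ages, and 0.26 and 0.034 for the interactions of Hspb1 and Hspb8. Quantile normalization of the ratios gave 0.076 for Hspb2 to Cryab between knockout ages and -0.017 for Bag3 to Hspb8 between wild-type ages.

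Of the other Cryab probe sets, 1416455_a_at gave -0.15 in adult knockout, 0.18 between knockout ages and 0.13 for the interaction, and 1435837_at gave -0.42 and 0.89 for the former 2. For Hspb8, 1417014_at gave -0.12 between wild-type ages and -0.95 between knockout ages, and 1456434_x_at gave 0.14 in aged knockout and 0.90 for the interaction. For Hspb1, 1422943_a_at gave 0.11 in aged knockout, -0.0013 between wild-type ages and 0.28 for the interaction. For Hspb7, 1434927_at gave 0.19 in adult knockout and 0.0043 between wild-type ages. The other probe sets, the term combined with fewer arrays, the deposited scale for ratios and the list counts under the term were added after seeing the data.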
